A study of Homo sapiens with 5 samples.

Results

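G-quadruplexes (G4s) are 4-stranded DNA structures formed by runs of guanine. The regions described here are the recurrent G4 regions of chromosome 19 in C4-2 cells, a prostate cancer line derived from LNCaP that no longer depends on androgen. BG4, an antibody fragment that binds folded G4s, was used for chromatin immunoprecipitation and sequencing (ChIP-seq) of formaldehyde-fixed, sonicated chromatin in 4 replicates. All 4 samples come from the same line, which the labels also call prostate cancer tissue, with no treatment named, and there is no second condition. The other sample of the series, 1 input library of the same cells, was not analysed here, and whether the peaks were called against it is not given in the sources used here. The lists of peaks, places with more reads than their surroundings, were pooled, and peaks sharing 1 bp or more were joined. Joined regions supported by 2 or more replicates were kept, which gave 488 regions on chromosome 19 of 6543 on the 24 chromosomes. Peak positions are given on GRCh37 (hg19).

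Chromosome 19 is the most gene-dense human chromosome and is rich in G and C. It carries large tandem arrays of zinc finger (ZNF) genes, many of which encode KRAB zinc finger proteins, repressors that recruit heterochromatin factors to DNA. G4 motifs are frequent just upstream of gene starts, and folded G4s have mostly been mapped to open, nucleosome-poor promoter chromatin. One of these arrays lies in 19p12 (taken here as 20 to 24 Mb) and another in 19q13.4 (52 to 59 Mb). The arms were divided at 26 Mb, inside a stretch of 3.515 Mb without a peak.

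To show the kind of sequence at gene starts on this chromosome, the 250 bases upstream of 6 genes are printed 5′ to 3′ on the strand of the gene. They come from RefSeq on GRCh38.p14, matched by gene symbol, so their coordinates are on another build than the peaks. Capitals mark a G4 motif, defined as 4 runs of at least 3 G separated by loops of 1 to 7 bases, searched on both strands, so that a motif of the opposite strand reads as runs of C. Of the 47 gene names of this chromosome in the study's list of start windows, described below, 19 had an entry in the table. Of all 35116 start windows of this length in the table, 23.5% held such a motif. KLF2, which encodes an endothelial and T cell transcription factor, is shown because its 4000 bp start window overlapped a region found in all 4 replicates. Its sequence (chr19:16324576-16324825 on the plus strand) had a motif on the printed strand from base 1 to base 20 and 80.0% G and C.
KLF2: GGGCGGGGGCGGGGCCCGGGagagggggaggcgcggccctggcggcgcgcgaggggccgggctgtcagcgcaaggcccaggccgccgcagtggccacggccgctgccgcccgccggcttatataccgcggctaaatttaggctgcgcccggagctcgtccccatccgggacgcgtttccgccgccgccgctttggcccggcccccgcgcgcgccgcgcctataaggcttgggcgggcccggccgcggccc
ZNF699 (chr19:9309839-9310088 on the minus strand) is shown as a zinc finger gene of 19p with a region of 3 replicates. It had a motif on the strand opposite to the printed one, from base 182 to base 203.
ZNF699: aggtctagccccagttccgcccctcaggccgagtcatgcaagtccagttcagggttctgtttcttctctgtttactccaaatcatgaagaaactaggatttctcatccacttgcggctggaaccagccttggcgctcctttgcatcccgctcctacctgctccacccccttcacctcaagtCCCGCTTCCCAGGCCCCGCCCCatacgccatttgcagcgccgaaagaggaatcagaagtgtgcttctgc
ZNF470 (chr19:56567218-56567467 on the plus strand) and ZNF667 (chr19:56477346-56477595 on the minus strand) are zinc finger genes of 19q13.4 whose windows held a region of 4 and of 2 replicates. Neither sequence had a match to the motif.
ZNF470: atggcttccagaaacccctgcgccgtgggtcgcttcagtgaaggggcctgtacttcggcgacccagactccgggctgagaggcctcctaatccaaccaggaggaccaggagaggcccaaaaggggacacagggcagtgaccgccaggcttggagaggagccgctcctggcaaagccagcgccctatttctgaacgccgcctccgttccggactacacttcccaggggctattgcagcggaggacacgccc
ZNF667: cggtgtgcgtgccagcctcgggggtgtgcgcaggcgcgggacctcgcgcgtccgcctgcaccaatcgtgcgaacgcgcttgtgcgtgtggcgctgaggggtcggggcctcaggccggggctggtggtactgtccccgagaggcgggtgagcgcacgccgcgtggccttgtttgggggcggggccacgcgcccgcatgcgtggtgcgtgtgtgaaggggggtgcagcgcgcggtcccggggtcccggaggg
ZNF43 (chr19:21836183-21836432 on the minus strand) lies in 19p12, where only replicate 1 had a peak at its start. KLK3 (chr19:50854665-50854914 on the plus strand) encodes prostate-specific antigen, an androgen receptor target of prostate cells, and only replicate 4 had a peak at its start. Both were without a match in these 250 bases.
ZNF43: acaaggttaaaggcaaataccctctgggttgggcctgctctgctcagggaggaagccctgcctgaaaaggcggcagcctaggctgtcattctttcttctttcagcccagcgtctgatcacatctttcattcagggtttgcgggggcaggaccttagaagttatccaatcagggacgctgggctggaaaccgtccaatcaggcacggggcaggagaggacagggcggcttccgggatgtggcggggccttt
KLK3: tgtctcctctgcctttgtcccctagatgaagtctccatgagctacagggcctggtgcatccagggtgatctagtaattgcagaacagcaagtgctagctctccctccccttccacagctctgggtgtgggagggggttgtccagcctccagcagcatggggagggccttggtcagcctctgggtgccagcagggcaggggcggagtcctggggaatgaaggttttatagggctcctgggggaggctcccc

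Chromosome 19 had the highest density of recurrent G4 regions of the 24 chromosomes, with 8.26 regions per Mb. Chromosome 17 followed with 5.70, chromosome 16 with 3.98 and chromosome 22 with 3.89. Lengths ran from position 0 to the last peak end, so that long stretches without a peak count in full. The order after chromosome 19 depends on this. By the mean distance between neighbouring regions, chromosome 22 (176 kb) was level with chromosome 17 (175 kb) and denser than chromosome 16 (252 kb). On chromosome 19 it was 121 kb. In each replicate list, chromosome 19 held 559 of 8036, 437 of 6192, 477 of 6805 and 345 of 4427 peaks, or 7.20% ± 0.395 (SD, n = 4). Library depth is unknown, since no read counts come with the peaks, and replicate 4 had the fewest peaks.

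Chromosomes with more gene starts per Mb had more recurrent regions per Mb. RefSeq start windows, counted on GRCh38.p14, were also densest on chromosome 19, with 32.4 per Mb. Over the 23 chromosomes with start windows in this table, regions per Mb and starts per Mb had a Pearson r of 0.95 and a Spearman rho of 0.897. The table held no start windows for chromosome 8, which had 191 recurrent regions and is missing from all values per start. Both densities share the chromosome length as their denominator. The number of regions and the number of starts with a G4 motif had an r of 0.920. These values are descriptions over chromosomes. Set against gene starts instead of length, chromosome 19 was not in first place. It had 25.5 regions per 100 starts, behind chromosome 22 with 29.8, chromosome 17 with 28.2 and chromosome 16 with 27.8. Per 100 starts with a motif it had 83.1 regions and ranked 7 of these 23 chromosomes, while chromosome 16 had 109.

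**Figure D1:**
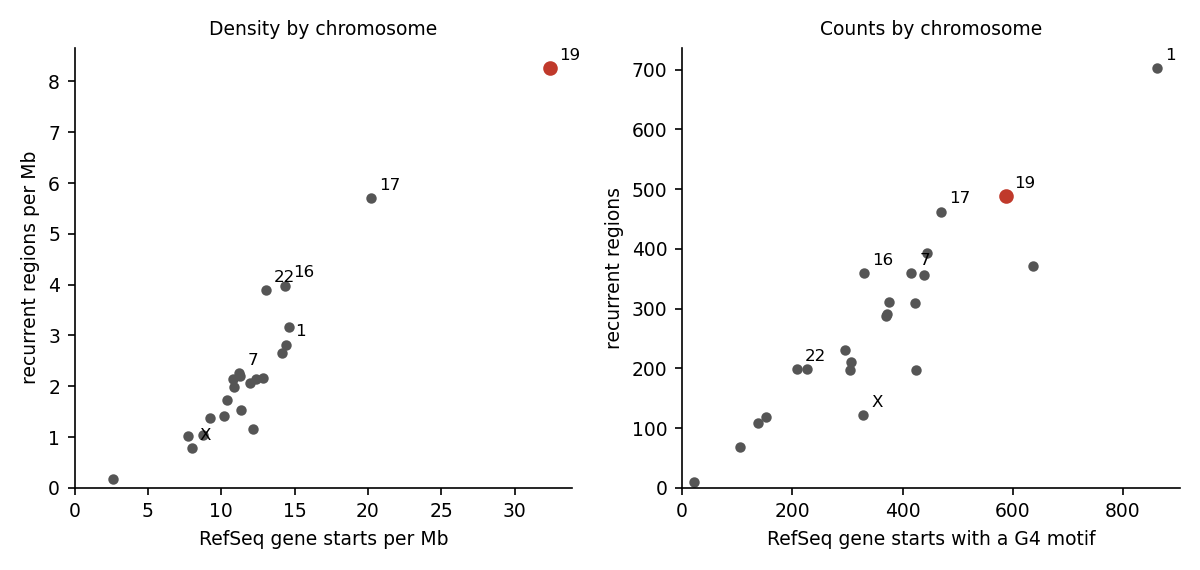
Recurrent G4 regions against RefSeq gene starts, 1 point per chromosome, with chromosome 19 in red. Chromosome 8, without start windows, is not shown. The left panel plots regions per Mb against gene starts per Mb, where chromosome 19 lies at 32.4 starts and 8.26 regions per Mb. The right panel plots the number of regions against the number of starts with a G4 motif in the 250 bases upstream, where chromosome 19 has 488 regions and 587 such starts, within the cloud of the other chromosomes.

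Replicate support was also high on chromosome 19. Among its 488 regions, 233 were found in all 4 replicates, while 125 were found in 3 and 130 in 2. The share in all 4 was 47.7% (exact binomial interval 43.2 to 52.3%), against a background of 41.4% over the 24 chromosomes. The other chromosomes ranged from 30.8% on chromosome 6 to 44.8% on chromosome 7, so chromosome 19 had the highest share. The interval of chromosome 7 reached 50.2% and overlapped that of chromosome 19. The first place depended on the libraries and the peaks used, since chromosome 19 ranked 4 without replicate 4, 2 without replicate 3 and 3 with the 3000 strongest peaks of each replicate. A further 234 merged regions of chromosome 19 had a peak of 1 replicate. They were 32.4% of all 722, and the recurrent share of 67.6% was the highest of the 24 chromosomes. On the other chromosomes this share ran from 55.6% on chromosome Y to 66.7% on chromosome 13, with a median of 62.8%. The lead over chromosome 13 was thus narrow, and no interval was computed for it.

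Of the 488 regions, 445 had a peak of replicate 1, 399 of replicate 2, 418 of replicate 3 and 305 of replicate 4. The percentage of regions with a peak of a given replicate was higher on chromosome 19 than on the other chromosomes in 4 of 4 replicates, by 0.635, 3.22, 2.07 and 5.32 percentage points (mean 2.81 ± 1.98, SD, n = 4). This difference was largest in replicate 4 and was 1.24 without it, and without replicate 1 it was 1.75. With regions of at least 3 replicates it was 1.44 and with the 3000 strongest peaks 3.33, and in both cases the replicates no longer shared 1 sign (exact permutation test, two-sided p = 0.25). The most frequent incomplete pattern was a peak in replicates 1, 2 and 3 only, with 78 regions. Replicates 1 and 3 only gave 46 regions, and replicates 1 and 2 only gave 39. Replicate 4 thus lacked a peak in 183 of the 488 regions.

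**Figure D2:**
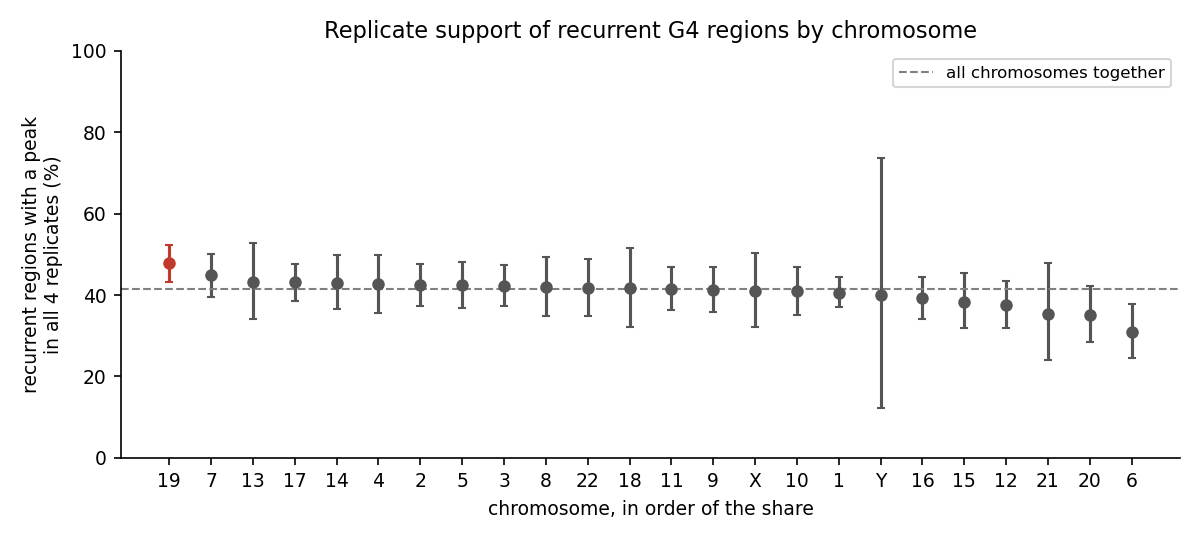
Percentage of recurrent G4 regions with a peak in all 4 replicates, by chromosome in falling order, with exact 95% binomial intervals. Chromosome 19 (red) is highest at 47.7%, above the line at 41.4% for all chromosomes together, and its interval overlaps those of many other chromosomes.

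Regions with more support had higher fold enrichment, the ratio of reads at the peak summit over the local background that the authors' peak caller gives. Among the merged regions of chromosome 19, the median of the highest value in a region was 5.94 with 1 replicate, 7.25 with 2, 8.63 with 3 and 13 with 4. The same medians on the other chromosomes were 5.71, 7.18, 8.75 and 12.3. The highest of several peaks tends to rise with their number, so this is given as a description.

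In the single replicates, the median fold enrichment of peaks in regions of chromosome 19 was 8.52, 8.15, 8.43 and 7.53. On the other chromosomes it was 8.36, 7.78, 7.98 and 7.17. The difference was small, with a mean of 0.337 ± 0.1245 (SD, n = 4), and positive in 4 of 4 replicates. The two-sided exact permutation test, which flips the sign of each replicate's difference, gave p = 0.13, the smallest p that 4 replicates allow (0.153 after Benjamini-Hochberg adjustment over the 11 tests made). No comparison over these replicates can therefore pass a threshold of 0.05 by this test. The same p and adjusted p hold for each difference below that had the same sign in 4 of 4 replicates. By the mean of its replicate medians, chromosome 19 (8.16) ranked 3, behind chromosome 7 (8.36) and chromosome 13 (8.21). The peaks of chromosome 19 were also wider than those of the others pooled, with a mean of the replicate medians of 420.5 against 403 bp. The difference was 17.4 ± 5.07 bp in 4 of 4 replicates. By the median width of recurrent regions, chromosome 19 (543.5 bp) lay behind chromosome 18 (550.5 bp) and chromosome 5 (550 bp).

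The strongest regions were not gathered on this chromosome. Of the 100 regions with the highest mean fold enrichment among the 2710 found in all 4 replicates, 7 lay on chromosome 19, which held 233 of the 2710 (8.60%). The strongest of them ranked 18 among the 2710. It was a region of 1130 bp at chr19:9929422-9930551 in 19p, with a fold enrichment of 35.3, 33.8, 34.1 and 19.2 in replicates 1 to 4 (30.6 ± 7.61, SD, n = 4). Replicates 1 to 3 were close to each other and replicate 4 was far below them. The region at chr19:1455222-1456198 followed with 29.7, 25.1, 29.8 and 21.2 (26.5 ± 4.12), and the region at chr19:2096117-2097105 with 30.8, 25.8, 23.9 and 25 (26.4 ± 3.04). The ranges of these 3 regions overlapped, so their order does not exceed the spread between replicates. The 10 strongest had means from 19.1 to 30.6 and widths from 488 to 1195 bp. Replicate 1 gave the highest value in 8 of them and replicate 4 the lowest in 7.

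The 10 strongest were ranked among 233 candidates of full replicate support, of which 138 lay on 19p and 95 on 19q. Of these 10 regions, 8 lay on 19p, and an excess over the share of that arm was not tested. The other two were chr19:47759788-47760979, with values of 26.7, 19.5, 24.8 and 16.1, and chr19:39832499-39833112, with values of 24.4, 16.6, 19.95 and 15.4. Both stayed above the median of their arm in every replicate, which their choice by mean fold enrichment made likely. The regions at chr19:10946223-10947036 and chr19:10981436-10982208 rank 7 and 5, and no other pair among the 10 lay as close together. Genes under these regions are not named, because no annotation of GRCh37 was used here.

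**Figure D3:**
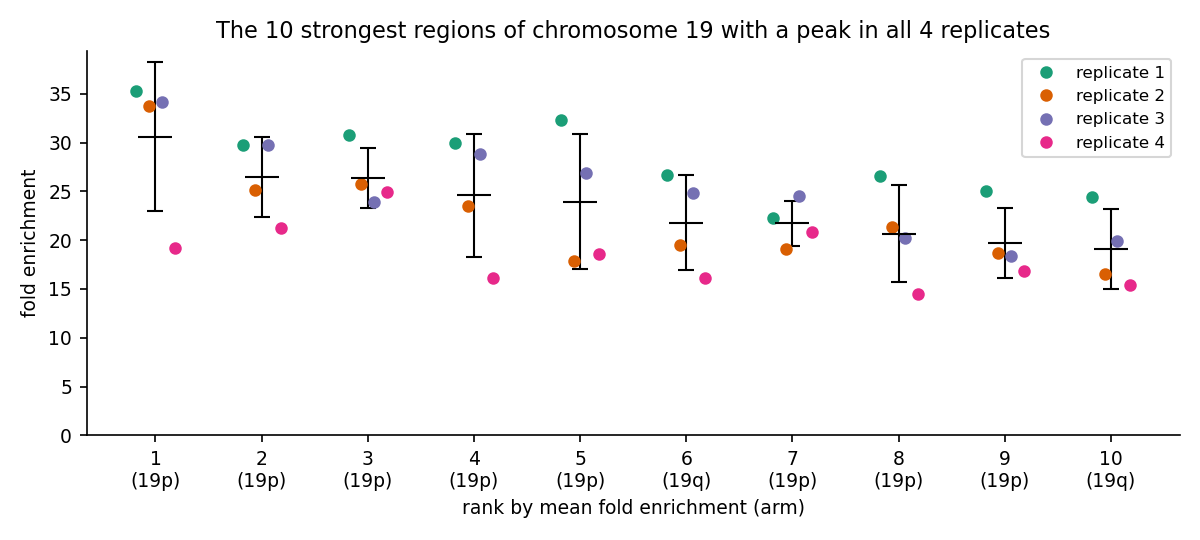
Fold enrichment in each of the 4 replicates for the 10 strongest regions of chromosome 19 with a peak in all 4 replicates, ordered by mean. Lines show the mean and bars the SD (n = 4). The means fall from 30.6 to 19.1 while the replicates of neighbouring ranks overlap. On 19p lie 8 of these regions, and 138 of the 233 from which they were chosen.

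The short arm was denser than the long arm. The 271 regions of 19p lay over 24.2 Mb (11.2 per Mb) and the 217 regions of 19q over 31.4 Mb (6.92 per Mb). Peaks in these regions had a density on 19p of 10.5, 9.46, 9.75 and 7.06 per Mb in replicates 1 to 4, and on 19q of 6.22, 5.58, 5.96 and 4.34 per Mb. Every value of 19p lay above every value of 19q. The ratio of both arms was nearly the same in each replicate, 1.66 ± 0.0363 (SD, n = 4), and the difference was 3.67 ± 0.673 peaks per Mb, positive in 4 of 4 replicates.

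The peaks of 19p also had higher fold enrichment. The median was 9.09, 8.37, 8.95 and 8.05 on 19p and 7.85, 7.61, 7.98 and 7.20 on 19q, a difference of 0.955 ± 0.208 (SD, n = 4) in 4 of 4 replicates. Replicate by replicate 19p was higher, and its lowest replicate (8.05) lay just above the highest of 19q (7.98). The share of regions in all 4 replicates was 50.9% (interval 44.8 to 57.0%) on 19p and 43.8% (37.1 to 50.7%) on 19q. The percentage of regions with a peak of a given replicate was higher on 19p in 3 of 4 replicates, by 2.24 ± 2.39 points on average (SD, n = 4, exact permutation test, two-sided p = 0.25, adjusted p = 0.275). This difference moved with the peaks used. It was 5.02 points, with the same sign in all 4 replicates, when regions of any replicate were counted, and 1.05 points with peaks of −log10 q of at least 4.

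Gene starts did not divide between the arms as the regions did. The RefSeq table held 787 starts on 19p and 1130 on 19q, so that 19p had 34.4 regions per 100 starts and 19q 19.2. With only starts that held a G4 motif in the upstream 250 bases, the values were 101 and 67.8. Zinc finger genes (symbols beginning with ZNF or ZFP) made up 10.4% of the starts of 19p and 20.3% of those of 19q. Their upstream sequences held the motif less often than those of other genes of the chromosome, in 53 of 311 starts (17%) against 33.3%. On 19p the shares were 11.0% and 36.6%, and on 19q 19.2% and 30.6%. Starts of 1 gene and of duplicated genes share sequence, so these shares are descriptions.

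The zinc finger cluster of 19p12 was nearly empty. It had 2 recurrent regions over 4 Mb, neither with a peak in all 4 replicates, while the rest of 19p had 269 regions over 20.2 Mb. The density of peaks was 0.5, 0.25, 0.5 and 0 per Mb in the cluster and 11.0 ± 1.75 per Mb (SD, n = 4) in the rest of the arm, with no overlap between the groups. The region at chr19:20162734-20163389 had a peak in replicates 1 to 3, with fold enrichments of 7.85, 9.89 and 5.99. The region at chr19:21324655-21325069 had a peak in replicates 1 and 3, with 7.04 and 8.81. Over the 3 replicates with a peak in the cluster, their median differed from that of the rest of 19p by −0.578 ± 1.82 (SD, n = 3, exact permutation test, two-sided p = 0.5, adjusted p = 0.5), lower in 2 replicates and higher in 1. With 1 or 2 peaks per replicate, a difference in strength was not detectable there. A further 4 merged regions of 19p12 had a peak of 1 replicate, or 66.7% of its 6 merged regions, against 28.8% in the rest of 19p. Genes of such tandem arrays are near-identical in part, so that reads can be shared between copies, and the values of these clusters are uncertain for that reason.

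The cluster of 19q13.4 was sparser than the rest of its arm but not empty. Its 30 regions gave 4.29 per Mb, against 187 regions and 7.68 per Mb in the rest of 19q. Peak density was 4.29, 3.14, 3.86 and 2.57 per Mb in the cluster and 6.77, 6.28, 6.57 and 4.84 per Mb outside it. Every replicate was lower in the cluster and the values did not overlap, with a ratio of 0.563 ± 0.0589 (SD, n = 4). Between 59 Mb and the last peak end at chr19:59087429 lay 6 more regions, with 6, 5, 5 and 4 peaks in replicates 1 to 4. They were counted in the rest of 19q. Counting them in the cluster would narrow the density difference, and no border past 59 Mb was tried. The median fold enrichment was lower as well, at 7.02, 7.06, 7.07 and 5.92 against 8.38, 7.95, 8.10 and 7.27, a difference of −1.16 ± 0.239 (SD, n = 4) in 4 of 4 replicates. The share of recurrent regions found in all 4 replicates was 46.7% (interval 28.3 to 65.7%), close to the 43.3% of the rest of 19q. The share of merged regions with 1 replicate was 47.4% in the cluster and 33.5% in the rest of the arm.

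The 3 strongest regions of 19q13.4 were modest beside those of the whole chromosome. The region at chr19:55850497-55851372 had 13.8, 10.2, 8.67 and 14.7 (11.8 ± 2.89), and the region at chr19:55972914-55973462 had 11.8, 8.59, 12.1 and 8.20 (10.2 ± 2.04). The next, at chr19:57018875-57019328, had 7.04, 6.48, 13.6 and 5.92 (8.26 ± 3.59), so its place rests on replicate 3. It covered the centre of the window of ZNF471.

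**Figure D4:**
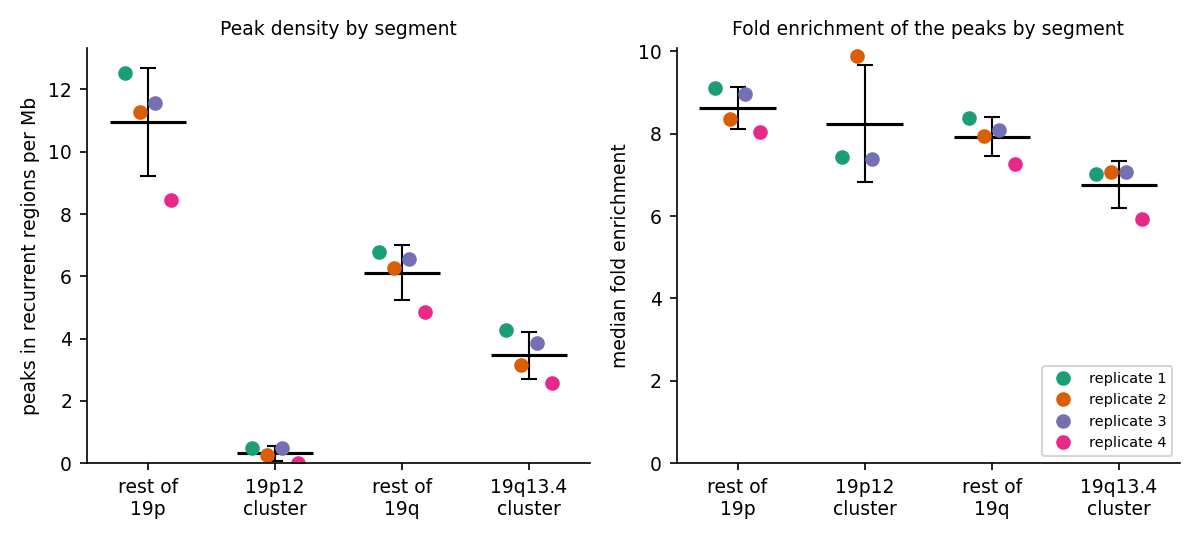
Peak density (left, peaks in recurrent regions per Mb) and median fold enrichment of those peaks (right) in 4 segments of chromosome 19, with 1 point per replicate and the mean and SD as lines (n = 4, and n = 3 for the fold enrichment of 19p12, where replicate 4 had no peak). The density falls from 11.0 in the rest of 19p to 0.3125 in 19p12, and from 6.12 in the rest of 19q to 3.46 in 19q13.4.

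Named genes come from the 47 windows of 4000 bp on chromosome 19 in a list of gene starts that the study drew from these samples, so that every window holds a peak and the list is no independent evidence. The study compared its C4-2 peaks with G4 maps of HepG2 and K562 cells and listed those it called specific to prostate cancer, so the windows are not all the gene starts with a G4 region on this chromosome. Of the 47 windows, 22 overlapped a recurrent region, and 25 held only a region of 1 replicate. The 22 windows led to 15 different regions, or 3.07% of the 488. Of these 15, 5 were found in all 4 replicates, against 233 of the 488 (47.7%). Their median of the mean fold enrichment, with 0 where a replicate had no peak, was 5.41. It was 6.63 for the 473 regions outside the windows. Of the 12 windows with a ZNF or ZFP symbol, 7 had a recurrent region. Without ZNF667-AS1, an antisense RNA gene, it was 6 of 11. In 19q13.4, ZNF471, ZFP28 and ZNF470, neighbouring zinc finger genes, each had a region of all 4 replicates over the window centre. The region of ZFP28 (chr19:57049691-57050543) had 7.85, 10.6, 6.43 and 5.09 (7.49 ± 2.35), and that of ZNF470 (chr19:57078569-57079205) had 6.99, 7.61, 7.49 and 5.12 (6.80 ± 1.15). With the 8.26 ± 3.59 of ZNF471, the 3 genes did not differ beyond the spread between replicates. ZNF667 and ZNF667-AS1 shared a region of replicates 1 and 3 (chr19:56988467-56988951), with 6.47 and 4.45. Peak lists carry no strand, so the signal cannot be given to one or the other.

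On 19p, ZNF699 had a region of replicates 1, 2 and 3 (chr19:9420314-9420910) with 6.45, 4.63 and 7.07, and ZNF358 a region of replicates 1 and 3 with 6.08 and 5.99. The other 5 windows (ZNF43, ZNF507, ZNF829, ZNF568 and ZNF544) held a peak of 1 replicate each, with values between 4.71 and 5.85. ZNF829 and ZNF568 shared the same peak.

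Among other genes, KLF2 had a region over its window centre in all 4 replicates (chr19:16435299-16435956), with 8.39, 7.47, 9.31 and 6.04 (7.81 ± 1.39, SD, n = 4). The 4 values lay close together. VSIG10L, an immunoglobulin domain gene, had a stronger region of all 4 replicates (chr19:51842850-51843404), with 15.4, 9.75, 16 and 7.31 (12.1 ± 4.25), but at 1974 bp from the window centre and so at its edge. WIZ, which encodes a zinc finger partner of the histone methyltransferases G9a and GLP, shared a region of replicates 1 and 2 with MIR1470, with 7.30 and 6.55. The window of KLK3 held a peak of replicate 4 only (chr19:51357909-51358335), with a fold enrichment of 6.58. It was therefore not among the recurrent regions. LINC00665, a long non-coding RNA gene, had a region of replicates 1 and 3, with 6.91 and 5.19. Among small RNA genes, MIR5684 had a region of replicates 1, 3 and 4, with 6.69, 10.7 and 7.74, and RN7SL758P, a pseudogene of the signal recognition particle RNA, a region of replicates 1, 2 and 3, with 7.99, 6.33 and 7.32. RN7SL758P is one of many near-identical copies, so its values are uncertain. The other 8 windows with a region carried clone names, and 5 of these regions were those of windows named above.

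Regions of chromosome 19 lay close together, at distances that varied widely. Over the whole chromosome, the median distance divided by the mean distance was 0.400, where a lower ratio marks more uneven spacing. This was rank 2 of the 24 chromosomes from the highest, with 0.395 on chromosome 22, 0.371 on chromosome 17 and 0.262 on chromosome 16. The median of the other chromosomes was 0.309, so uneven spacing was not particular to chromosome 19. Within the arms, 486 distances between the centres of neighbours had a median of 48.2 kb, with quartiles of 19 and 107 kb. They ran from 0.581 to 2891 kb. Of these, 83 (17.1%) were 10 kb or less and 8 were over 1 Mb. The median was 43.8 kb on 19p, 55.9 kb on 19q and 73.7 kb in 19q13.4. The 1 Mb bins with most regions were those from 1 to 2 Mb with 30 regions and from 2 to 3 Mb with 24, near the end of 19p. The first 3 Mb held 68 regions, 25.1% of those of the arm. Of 60 bins, 7 were without a region, 3 on 19p and 4 on 19q. Among them, the bins from 25 to 26 Mb and from 26 to 27 Mb lie inside the stretch without a peak between the arms.

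Within single lists, 25.2% ± 2.12 (SD, n = 4) of the peaks of chromosome 19 had another peak within 10 kb, against 15.3% ± 1.97 on the other chromosomes. The difference was 9.94 ± 0.674 percentage points in 4 of 4 replicates. It was not particular to chromosome 19, since chromosome 16 had 23.7% ± 3.91 and chromosome 17 had 20.5% ± 4.86. Chromosome 22, however, had 14.9% ± 4.51, close to the value of the other chromosomes together. These shares were not corrected for the density of regions, which was highest on chromosome 19. At 100 kb the chromosomes stood further apart, with 73.5% of neighbours of chromosome 19 at this distance or closer, 63.1% of chromosome 17, 62.0% of chromosome 16 and 61.1% of chromosome 22.

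By the gap between their edges, the closest neighbours of 19p were chr19:1260739-1261261 and chr19:1261872-1262951, with 610 bp between them. Those of 19q were chr19:49945987-49946572 and chr19:49946636-49947085, with 63 bp between them. In the pair of 19q, replicates 1 and 2 had a peak in both regions, so both were called apart in the same list. The widest stretch without a region spanned 2890972 bp of 19p, from chr19:21325069 in 19p12 to chr19:24216042 at the last region of the arm. On 19q it spanned 2462490 bp after chr19:30433816.

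**Figure D5:**
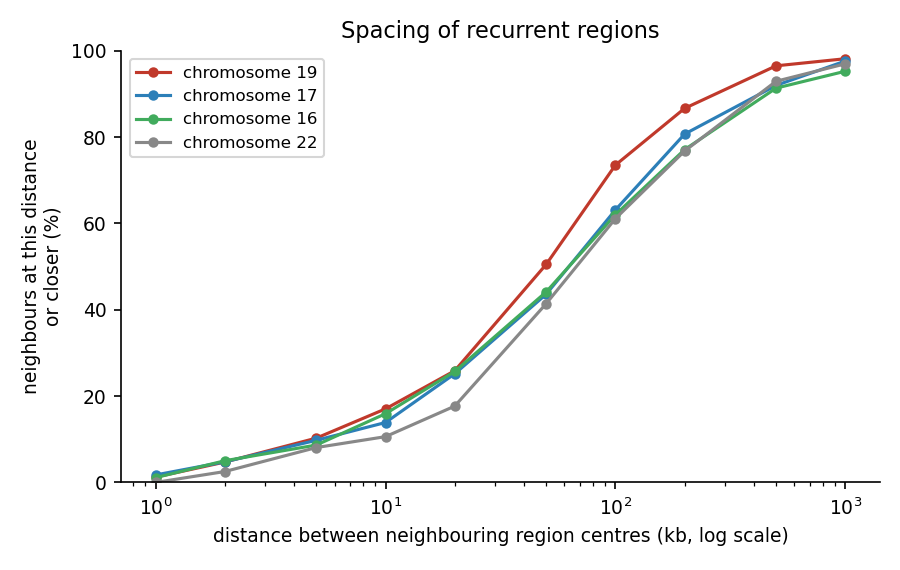
Percentage of neighbouring recurrent regions whose centres lie at a given distance or closer, for chromosomes 19, 17, 16 and 22 (distance in kb on a log scale). The curves of chromosomes 19, 17 and 16 lie close to each other up to 20 kb, and chromosome 19 lies above the others from 50 kb, with 73.5% at 100 kb.

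A group of 5 regions next to the centromere on 19q had low fold enrichment. They lie between chr19:27731842 and chr19:27738754. All 7 peaks of chromosome 19 with a fold enrichment below 3 were in 3 of these regions, while 0.819% of the peaks on the other chromosomes were below 3. The first region (chr19:27731842-27732855) had 4.29, 5.16, 4.77 and 6.01, among the lower values of the chromosome in replicates 1 to 3 and less so in replicate 4. Lower values were found in 7 of 445, 19 of 399, 14 of 418 and 78 of 305 regions with a peak of replicates 1 to 4. The −log10 q of the first region was 106, 127, 115 and 132, the highest among the 488 regions in every replicate. DNA next to centromeres is repetitive, and how reads that align to several places were treated is not given in the sources used here, so the values of these 5 regions are uncertain. The fifth (chr19:27738314-27738754) had 3.24, 3.36, 3.09 and 3.20 in replicates 1 to 4. Without this group the arm difference in median fold enrichment was 0.921.

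Reproducibility of the values on chromosome 19 was near that of the other chromosomes. Pearson's r of fold enrichment between replicates, over the recurrent regions and with 0 where a replicate had no peak, averaged 0.663 over the 6 pairs on chromosome 19 and 0.635 on the others. Over the regions found in all 4 the order turned, with 0.746 and 0.778. The summits of such a region spanned a median of 104 bp over its replicates on chromosome 19 and 96 bp elsewhere. Regions are not independent replicates, and these values are descriptions. The merged regions of chromosome 19 had a median width of 543.5 bp (297 to 1409 bp) and covered 291.74 kb, and 6.35% were 1 kb or wider, against 3.73% on the other chromosomes.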

How the data were processed

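Peaks were measured by BG4 ChIP-seq in 4 replicates of C4-2 cells. Per the submitters' processing notes, bcl2fastq 1.8.4, Bowtie2 2.2.5, SAMtools 1.11, MACS2 2.1.1 and hg19 were used, and the options are not given in the sources used here. The methods name hg38, but the last peak of chromosome 1 ends at 249201060, a GRCh37 position. The authors deposited 1 peak list per replicate, called per sample. The deposited fold enrichment is the authors' MACS2 ratio at the summit over local background. The deposited p-values and q-values are the authors' MACS2 values as −log10. The deposited score restates the q-value and was not used. The methods call the replicates biological without naming separate cultures, so p-values measure only the spread between these samples, which may be technical.

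Peaks were merged at an overlap of 1 bp, and 292 recurrent regions on contigs were left out. For arm and cluster comparisons, peaks in recurrent regions were counted per replicate, with 19p taken from position 0 to its last peak end and 19q from its first to its last peak. Differences were tested with a two-sided exact permutation test over replicates (4 replicates, smallest p 0.13, and 0.25 for 3) with Benjamini-Hochberg adjustment over 11 tests. Shares have exact (Clopper-Pearson) intervals at 95%, which cover counting error only. All 6 measures checked were recovered on 2000 simulated sites. They were counts of regions, the fold difference between chromosomes and the smallest p. The sites were evenly spaced within an arm, with peaks of 1 width and a constant fold enrichment per chromosome. Spacing, widths and densities were not checked.

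The regions and lists were chosen with earlier results of these data known. Named regions are the 10 strongest of the chromosome and 3 of each cluster with a peak in all 4 replicates (19p12 has none), the closest neighbours and the widest empty stretch of each arm, and the windows of zinc finger genes, of KLK3 and of genes with a region. The regions next to the centromere and both regions of 19p12 were named after their values were seen. From the supplementary list of the study only gene names and window positions were used. Start windows are RefSeq's on GRCh38.p14, with chromosome lengths taken from the last peak. Each replicate was left out in turn, and results were recomputed for other levels of replicate support, for an overlap of 50%, for the 3000 strongest peaks per list and for peaks whose −log10 q reached 4. Tools were Python 3.11.15 with scipy 1.17.1 and numpy 2.4.6 for tests, pandas 2.3.3 for tables and matplotlib 3.10.9 for plots.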

Additional observations from a re-analysis of the deposited data

Results flagged for a closer look

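Of 47 measures over the 4 replicates, 4 had a replicate far from the other three, by Dixon's test at the 95% level, and chance alone gives about 1 in 20 such measures. The median fold enrichment of 19q13.4 was 7.02, 7.06, 7.07 and 5.92, with replicate 4 lowest (gap 0.953 of the range). The strongest region, chr19:9929422-9930551, had 35.3, 33.8, 34.1 and 19.2, again with replicate 4 lowest (0.903). The region at ZNF471, chr19:57018875-57019328, had 7.04, 6.48, 13.6 and 5.92, with replicate 3 highest (0.855). The percentage of peaks that lay on chromosome 19 was 6.96, 7.06, 7.01 and 7.79, with replicate 4 highest (0.879). Replicate 4 is also the list with the fewest peaks, 4427, and the part of this in its values was not tested.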

How the results depend on the processing

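All 126 alternatives of the 11 tested differences kept their direction, and no result reversed. Of 30 alternatives for counts and values 12 moved, by over 1.5 times for the count, outside its interval for the share, or by over 1 SD of the replicates for the spacing. Among named regions, the mean fold enrichment of the ZNF471 region fell from 8.26 to 4.88 with the 3000 strongest peaks, where a replicate whose peak is left out counts as 0. The regions of chromosome 19 numbered 233 with a peak of all 4 replicates and 249 with the 3000 strongest peaks. The share in all 4 was 65.1% with regions of at least 3 replicates, 32.3% with regions of any replicate and 52.6% with the 3000 strongest peaks. With a replicate left out it is the share in all of the remaining 3, from 60.2 to 67.1%. Median spacing was 89.4 kb with all 4 replicates, 32.9 kb with any replicate and 77.3 kb with the strongest peaks. The lower fold enrichment of 19q13.4 was −1.16 as reported and −2.91 over regions of all 4 replicates, and −1.51 to −1.14 with a replicate left out. That of 19p12 ran from −1.89 to −0.10 with a replicate left out, and it gave no value where no peak was left. The difference in regions with a peak between the arms was 1.47 points without replicate 2. The neighbours within 10 kb differed by 4.49 points over regions of all 4 replicates and by 4.02 with the 3000 strongest peaks, in place of 9.94. The share in all 4 replicates was not computed for regions of all 4, where it is fixed. Both of the next alternatives were chosen after seeing the data. Without both zinc finger clusters the arms differed by 4.84 peaks per Mb and by 0.703 in median fold enrichment. Without the first 100 kb of peaks of 19q the differences were 0.921 in fold enrichment, 2.15 points in regions with a peak, and −1.23 in the fold enrichment of 19q13.4. Every test is made on differences within a replicate, so no further pairing by replicate number was fitted. The lists hold no counts, the smallest p that the permutation test can give with 4 replicates is 0.13, and all values come from 1 cell line.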
